A study of Mus musculus with 29 samples.

Results

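The Ptgs2 locus was taken as a 40 kb window of chromosome 1, from 151930001 to 151970000 in the mouse build mm9, with the gene near 151947001 to 151956000. The window holds 17 kb before this 9 kb gene interval and 14 kb after it. Its members are the 46 peaks that overlap it, of 1191022 in 26 peak lists, and the 72 chromatin state segments that overlap it, of 2070909 in 4 segmentations. The gene interval is known only to the nearest kb, because the annotation of that build was not used here. Its lower end is called the gene start below, since RefSeq places Ptgs2 on the + strand of GRCm38.p6.

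All libraries came from RAW264.7, a mouse macrophage-like line transformed by Abelson murine leukemia virus, profiled by chromatin immunoprecipitation and sequencing. For 7 histone marks there were cells left untreated and cells given lipopolysaccharide (LPS), a bacterial cell wall component sensed by Toll-like receptor 4, at 100 ng/ml for 1 h or 4 h. For H3K4me1 and H3K36me2 there were in addition cells given flavopiridol, a CDK9 inhibitor that blocks transcription elongation, for 1 h alone or for 1 h before 4 h of LPS, and PU.1 was profiled in untreated cells. The labels describe 29 samples, of which 3 inputs have no list, and each mark and condition has 1 library, so no difference below has a replicate check and none was tested.

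Ptgs2 encodes cyclooxygenase 2, the inducible enzyme that turns arachidonic acid into the common precursor of the prostaglandins and thromboxanes. The gene is a classic inflammatory target in macrophages, where LPS switches it on through NF-kB, C/EBP beta and factors that bind a cyclic AMP response element. H3K4me3 and H3K27ac are known from active promoters, H3K4me1 from enhancers and promoter flanks, H3K36me3 and H3K79me2 from transcribed gene bodies, H3K36me2 from broad gene and intergenic domains, and H3K27me3 from Polycomb-repressed chromatin. PU.1 is the ETS factor that defines the macrophage lineage.

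The promoter is shown first because the H3K4me3, H3K27ac and H3K4me1 peaks of untreated cells and 1 PU.1 peak lie across the gene start. The sequence is the RefSeq promoter of Ptgs2 in GRCm38.p6, chr1:150099781-150100030 on the + strand, the 250 bases before the transcription start, written 5′ to 3′. Capitals mark GGGCGG, an Sp1 motif that begins at position -170, and TTGCGCAA, a C/EBP palindrome that begins at position -69.
Ptgs2 promoter: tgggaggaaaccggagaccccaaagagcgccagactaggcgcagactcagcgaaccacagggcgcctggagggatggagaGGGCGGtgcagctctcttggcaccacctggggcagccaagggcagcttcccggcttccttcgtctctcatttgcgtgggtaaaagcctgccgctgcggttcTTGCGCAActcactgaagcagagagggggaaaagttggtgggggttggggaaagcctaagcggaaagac
The second sequence is a 25-base site just after the RefSeq start, chr1:150100036-150100060 on the + strand of the same build. Where transcription starts in these cells was not determined, so motif positions and absences hold for the RefSeq window only. Its capitals run from position 14 to 22 and hold CGTCA, a short form of the cyclic AMP response element, from position 14, and the E box CACGTG, from position 17, which overlap.
Ptgs2 start site: caccactaCGTCACGTGgagtccgc

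Motifs were searched on both strands of the RefSeq promoter window, which also takes in the first bases after the start, and in 32851 promoters of the same length. The full C/EBP palindrome TTGCGCAA was in 60 of them, or 0.183%. The shorter C/EBP letters TTNCNNAA matched 3 times at Ptgs2, of which both strands of the palindrome give a pair, and occurred in 40.7% of promoters. The E box CACGTG was in 7.15% of promoters, the response element letters CGTCA in 20.8% and the Sp1 letters GGGCGG in 35.7%. An NF-kB-like stretch, GGG and CC with any 5 bases between them, matched once, from position -23, as it did at least once in 50.8% of promoters. The ETS core GGAA matched 6 times, and 96.0% of promoters hold it. The longer PU.1 letters GAGGAAGT, the AP-1 letters TGANTCA and the TATA letters TATAAA had no match in the Ptgs2 window, and occurred in 3.20%, 7.81% and 13.6% of promoters. RefSeq also lists Ptgs2os, a long noncoding RNA on the opposite strand, whose promoter window shares 256 bases with that of Ptgs2, so a peak here cannot be assigned to one of the pair.

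The map of all peaks by list shows the arrangement. Of the 26 lists, 22 had a peak in the window. In untreated cells H3K4me3 and H3K27ac had short peaks at the gene start, H3K4me1 spanned them, H3K36me3 lay inside the gene, and H3K36me2 covered most of the window except the gene start. Of the 46 peaks, 9 ran past a window edge, and only their length inside the window was counted as cover.

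**Figure D1:**
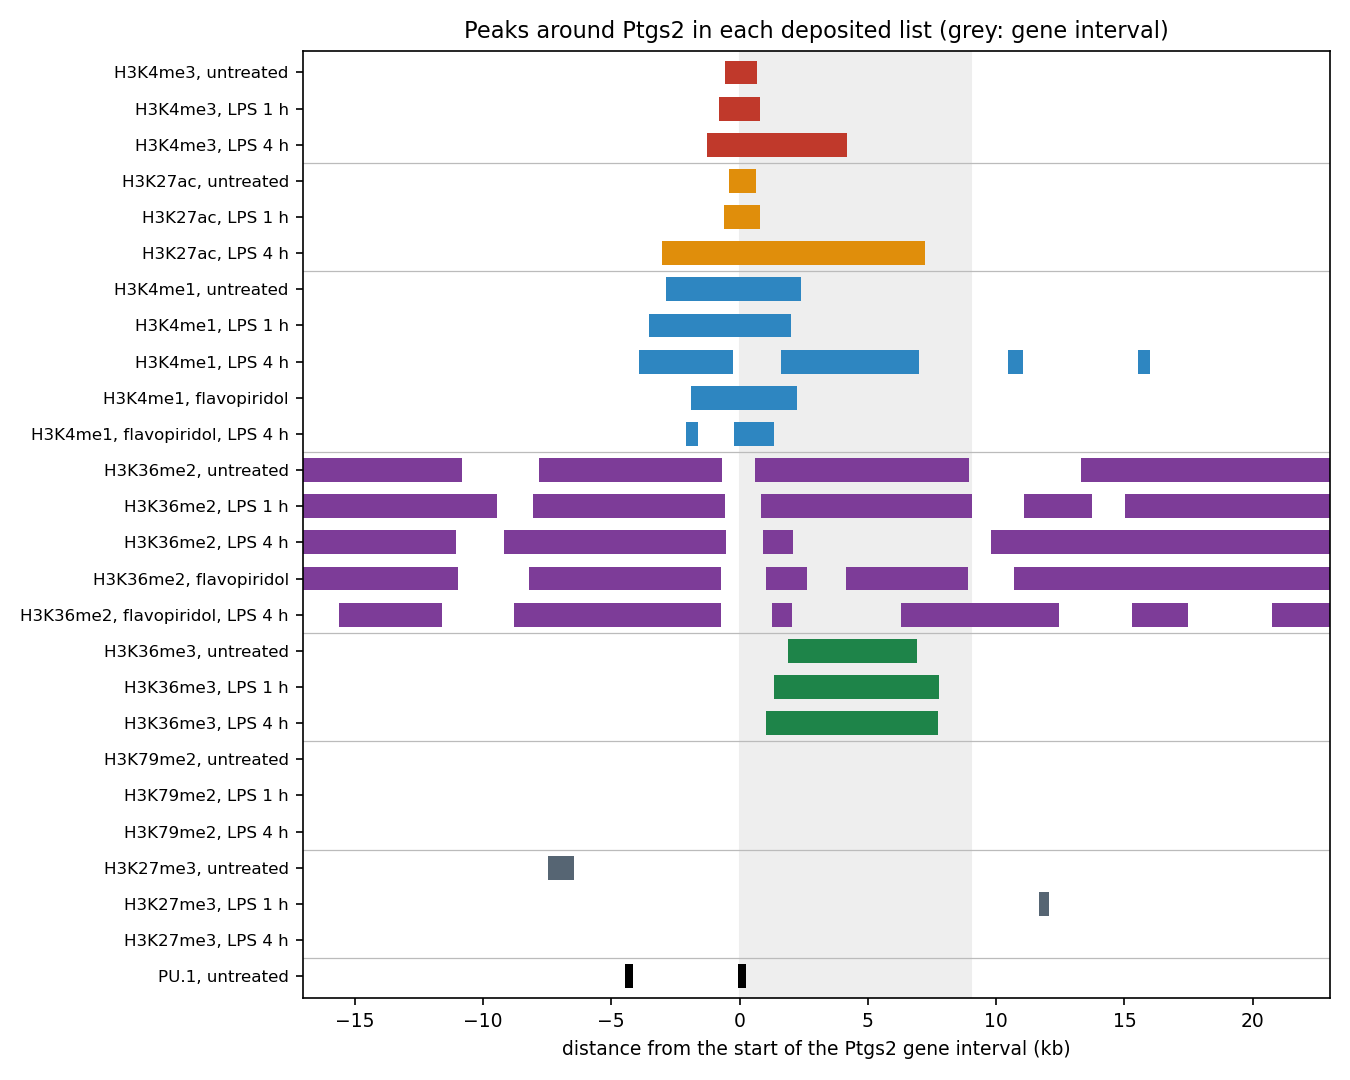
Peaks of each deposited list around Ptgs2. The x axis is the distance in kb from the start of the gene interval, each row is 1 library and the grey band is the gene interval. At LPS 4 h the H3K4me3 and H3K27ac bars reach into the gene interval, while the H3K36me2 bar that filled it is reduced to 1174 bp.

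The promoter mark H3K4me3 formed 1 peak at the gene start in each list, and the peak was much wider at 4 h of LPS. It ran from 151946415 to 151947668 in untreated cells, 1254 bp wide, and from 151946201 to 151947796 at 1 h, 1596 bp wide. At 4 h it ran from 151945739 to 151951199 and was 5461 bp wide, with 4.199 kb of it inside the gene interval. The widening was thus toward the gene body, with 1.262 kb before the gene start at 4 h against 0.586 kb in untreated cells.

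The untreated peak was of ordinary width, since 55.4% of the H3K4me3 peaks in its list were at least as wide. At 1 h the share was 47.0%, and at 4 h it was 2.95%. The width ratio from untreated to 4 h was 4.35, against a median of 1.05 over 20256 peaks that overlap between the lists, of which 4.59% widened at least 2-fold and 0.839% as much as at Ptgs2. From untreated to 1 h the ratio was 1.27, against a list median of 1.00. No H3K4me3 peak of the window was gained at 4 h, meaning a peak with no overlap of 1 bp in the untreated list, where 9.64% of the list was. The deposited fold enrichment of the 3 peaks was 7.27, 2.75 and 5.79 in the order of the times, which is the authors' value for each peak and was not compared between lists.

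H3K27ac, the acetyl mark of active promoters and enhancers, spread further than H3K4me3. Its peak ran from 151946570 to 151947649 in untreated cells, 1080 bp wide, and from 151946377 to 151947812 at 1 h, 1436 bp wide. At 4 h a single peak ran from 151943985 to 151954242 and was 10258 bp wide. It then began 3.016 kb before the gene start and covered 7.242 kb of the gene interval. The authors' segmentation of 4 h put 4 kb of this peak in state 15, which has little H3K27ac, as given below.

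The width ratio of the H3K27ac peak from untreated to 4 h was 9.50, against a median of 1.00 over 27421 overlapping peaks, of which 12.6% widened at least 2-fold and 1.58% as much as here. To 1 h the ratio was 1.33, and 14.7% of overlapping peaks had as large a ratio. The plot of peak widths sets the small step at 1 h beside the large one at 4 h for both marks. No H3K27ac peak of the window was gained at 4 h, while 21.3% of the list was.

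**Figure D2:**
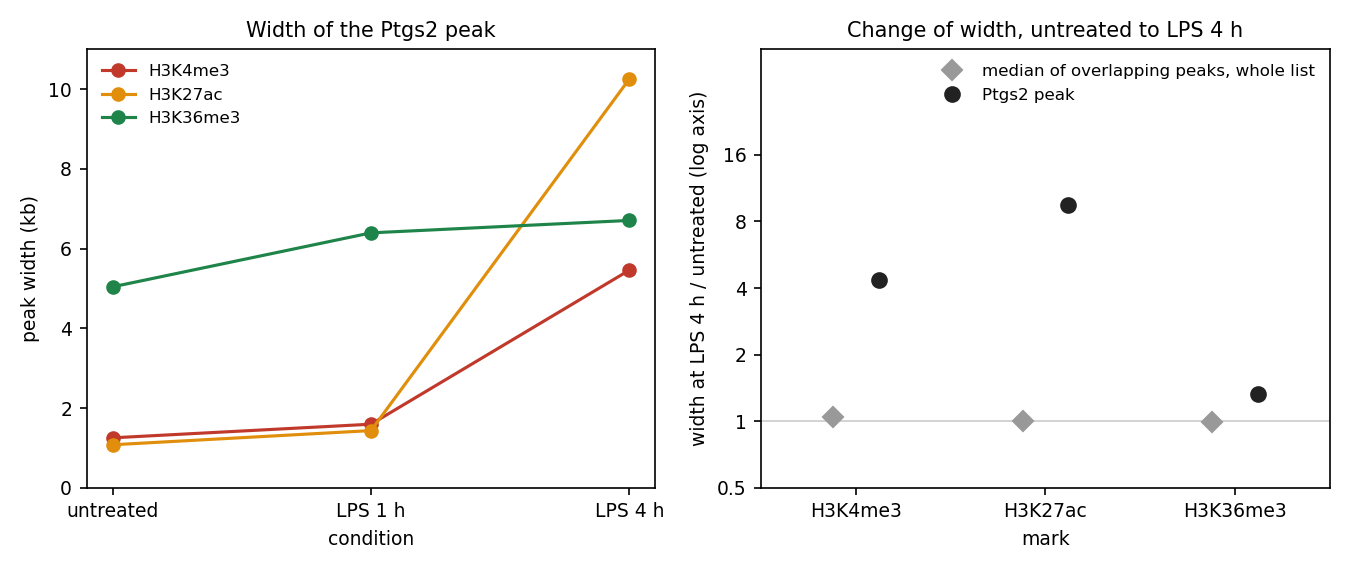
Left, width in kb of the H3K4me3, H3K27ac and H3K36me3 peak at Ptgs2 in 1 library per time. Right, the ratio of the width at LPS 4 h to that in untreated cells on a log axis, for the Ptgs2 peak (black) and the median of all overlapping peaks of the mark (grey). The Ptgs2 ratios are 4.35, 9.50 and 1.33, and the medians lie near 1.

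The share of the gene interval within peaks gives the same change in length. H3K4me3 covered 7.42% of it without LPS, 8.84% at 1 h and 46.7% at 4 h. H3K27ac covered 7.21%, 9.02% and 80.5%. Cover of both marks was nearly equal at the first 2 times, and H3K27ac was ahead at 4 h.

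All 9 kb windows of chromosomes 1 to 19 and X with a peak of the mark in either list give the background for the gene interval. A rise in H3K27ac cover of at least 50 points from untreated to 4 h was seen in 1.29% of them, and 0.331% rose by as much as the 73.3 points here. For H3K4me3 the rise was 39.2 points, and 0.186% of 9 kb windows rose by as much. Over the whole 40 kb window H3K4me3 cover was 10.5 points higher at 4 h, where 0.432% of 40 kb windows rose by at least 10 points. H3K27ac cover was 22.9 points higher, where 5.99% rose by at least 10 points.

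H3K4me1 had 1 peak across the gene start in untreated cells, from 151944117 to 151949382 and 5266 bp wide. At 1 h it ran from 151943479 to 151949010 and was 5532 bp wide. At 4 h there were 4 peaks. They ran from 151943082 to 151946737, from 151948632 to 151953998, from 151957460 to 151958037 and from 151962545 to 151962981. The first pair flanked the gene start and left 1894 bp between them without a peak, all of it inside the H3K4me3 peak of the same time.

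The other two H3K4me1 peaks at 4 h, 578 and 437 bp wide, lay past the gene interval and were gained. They make 2 of 4 peaks, where 15.0% of the list was gained, and when only the widest peaks of each list were kept, in equal numbers, the count was 0. H3K4me1 covered 26.5% of the gene interval without LPS, 22.3% at 1 h and 59.6% at 4 h. Where peaks needed a −log10 q of 5 or more, the first 2 values were 0 and that of 4 h was still 59.6%. The rise of 33.2 points from untreated to 4 h was equalled in 0.814% of 9 kb windows. Over the 40 kb window the rise was 11.9 points, and 2.46% of such windows rose by at least 10.

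H3K36me2 covered the gene interval almost entirely in untreated cells and left most of it at 4 h. The untreated peak ran from 151947598 to 151955953, 8356 bp wide, and at 1 h it ran from 151947826 to 151956061, 8236 bp wide. At 4 h only a peak from 151947912 to 151949085, 1174 bp wide, was inside the gene interval. Cover went from 92.8% to 90.8% to 13.0%. The authors' segmentations put part of the gene interval in state 15, which has little H3K36me2, at every time, as given below.

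The change of H3K36me2 cover in the gene interval from untreated to 4 h was -79.8 points, while the median over 65314 windows of 9 kb was 6.97 points. Cover was lower by at least 50 points in 0.118% of these windows, and by as much as here in 0.0199%. The broad peaks here are weak by the authors' own values, and where peaks needed a deposited −log10 q of 5 or more the cover was 0 both in untreated cells and at 4 h, which ends this difference. At 1 h it was 90.8% with that threshold too. On each side of the gene interval cover was higher at 4 h than in untreated cells, at 86.1% against 78.4% before it and 94.2% against 69.3% after it. A rise was usual, since the median 40 kb window rose by 5.84 points and 32.8% of them rose by at least 10. With a −log10 q of 5 or more the whole window had 0 cover in untreated cells and at 4 h, so the difference on the sides ends too.

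No H3K36me2 peak of the window was lost outright from untreated to 4 h, where 6.01% of the list was, and none was gained, where 25.2% was. The change was in the length of a peak that still overlapped. The part of the gene interval that was in H3K36me2 in untreated cells and not at 4 h was 7.182 kb, and 96.8% of it was still in H3K36me2 at 1 h. At 4 h H3K36me3 covered 78.9% of that length, H3K27ac 76.2%, H3K4me1 68.4% and H3K4me3 33.8%. These shares are near the cover of the whole gene interval at 4 h for H3K36me3 and H3K27ac, at 74.5% and 80.5%. For H3K4me1 and H3K4me3 the whole interval had 59.6% and 46.7%. In untreated cells the 7.182 kb was 0.724% in H3K27ac and 67.5% in H3K36me3, against 7.21% and 56.0% of the whole interval.

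The H3K36me2 peak before the gene start ended between 151946271 and 151946484 in all 5 lists. It ran from 151939193 to 151946330 in untreated cells, from 151938964 to 151946424 at 1 h and from 151937813 to 151946484 at 4 h. With flavopiridol it ran from 151938813 to 151946273, and with flavopiridol then LPS from 151938211 to 151946271. The widest H3K36me2 peak of the window, at LPS 4 h, ran from 151956819 to 152011366, 54548 bp wide and mostly past the window.

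The gene start itself was free of H3K36me2 in all 5 lists. The gap was 1267 bp in untreated cells, 1401 bp at 1 h, 1427 bp at 4 h, 1746 bp with flavopiridol and 2007 bp with flavopiridol then LPS. Between 94.3% and 100% of the untreated H3K4me3 peak lay in the gap, depending on the list.

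H3K36me3, the mark of transcribed gene bodies, was inside the gene interval in all 3 lists, untreated cells included. The peak ran from 151948894 to 151953934 in untreated cells, 5041 bp wide, from 151948361 to 151954755 at 1 h, 6395 bp wide, and from 151948046 to 151954752 at 4 h, 6707 bp wide. It covered 56.0% of the gene interval in untreated cells, then 71.1% and 74.5%. Unlike the promoter marks, most of its change was at 1 h. The width ratio to 4 h was 1.33, and 24.4% of 24222 overlapping peaks had a ratio as large. The rise in cover of the gene interval to 4 h was 18.5 points, and 5.14% of 9 kb windows rose by as much.

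H3K79me2, another mark of transcription, had 0 peaks in the window in its 3 lists. The nearest one was 139 kb before the gene interval and between 54.688 and 54.734 kb after it, at all times. An H3K36me3 peak without an overlapping H3K79me2 peak is common, at 56.3% of the untreated list, 55.0% at 1 h and 55.8% at 4 h. Among the H3K36me3 peaks that overlap H3K27ac at 4 h, as the one at Ptgs2 does, 22.2% had no H3K79me2 peak.

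At the earlier times the promoter marks and H3K36me3 were separate, and at 4 h they overlapped. H3K4me3 and H3K36me3 shared 0 bp in untreated cells and at 1 h and 3.154 kb at 4 h, which was 57.8% of the H3K4me3 peak. Over the whole lists 11.9%, 11.2% and 13.3% of H3K4me3 peaks overlapped H3K36me3 at the 3 times. H3K27ac and H3K36me3 shared 0 bp, 0 bp and 6.197 kb, which at 4 h was 60.4% of the H3K27ac peak and 92.4% of the H3K36me3 peak.

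The overlap of H3K36me2 with H3K36me3 went the other way. They shared 5.041 kb in untreated cells and 6.395 kb at 1 h, 100% of the H3K36me3 peak both times, and 1.04 kb or 15.5% of it at 4 h. The H3K36me2 peaks concerned had a −log10 q of 0.986 in untreated cells and 1.44 at 4 h. With a minimum of 5 nothing is shared at either of those times, which ends this difference. The share over the whole lists was not counted. H3K4me1 and H3K27ac shared 1.08, 1.436 and 8.12 kb. Of the H3K27ac peak at 4 h, 87.6% lay where untreated cells had H3K36me2, and 51.3% where they had H3K4me1. Untreated H3K36me2 covered 78.5% of the window and 92.8% of the gene interval, so a large share is usual here. Untreated H3K4me1 covered 13.2% and 26.5%. With a −log10 q of 5 or more neither mark had cover of the window in untreated cells. The plot of cover by part of the window shows that the changes between times were inside the gene interval more than on its sides.

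**Figure D3:**
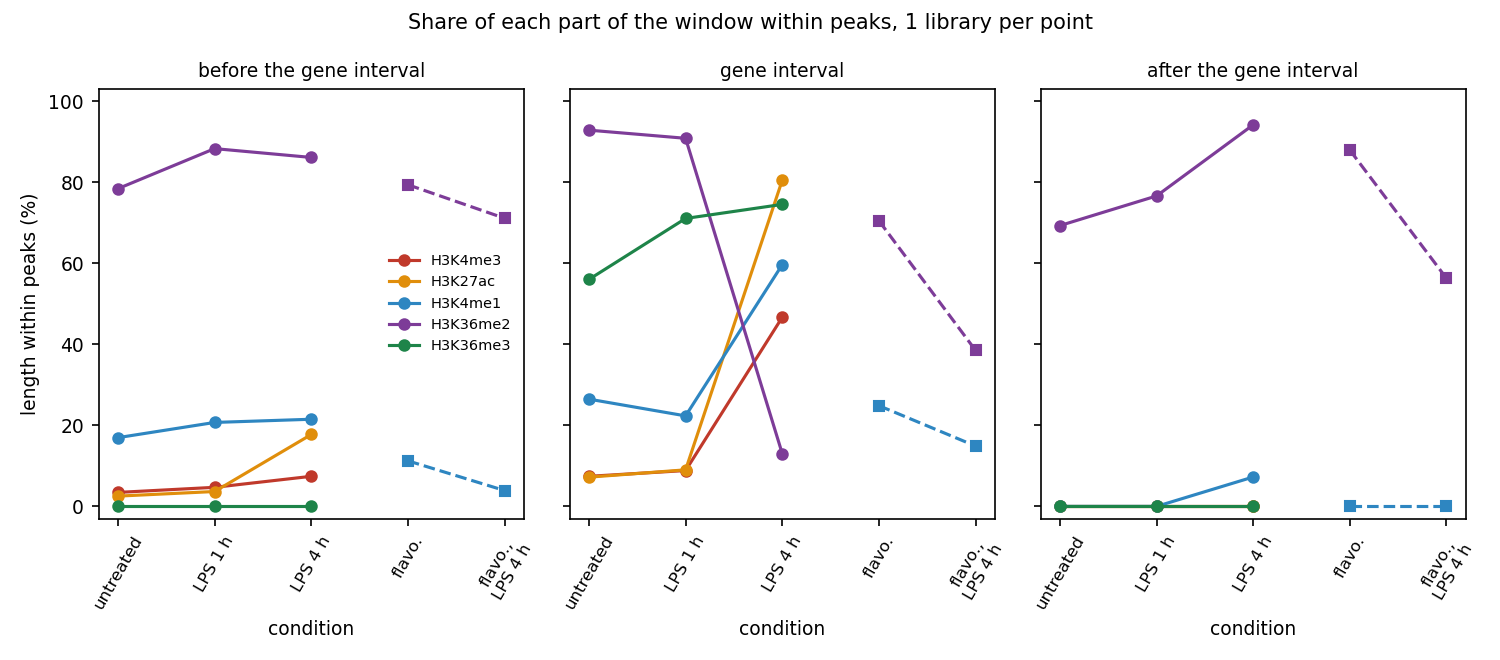
Share of the length within peaks, in percent, before, inside and after the gene interval. Circles joined by lines are libraries without flavopiridol, squares joined by dashes are those with it, 1 library per point, and where marks are at 0 their points lie on each other. Inside the gene interval H3K36me2 goes from 92.8% to 13.0% and H3K27ac from 7.21% to 80.5%.

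H3K27me3, the Polycomb mark, had no peak in the gene interval. In untreated cells it had 1 peak of 996 bp from 151939538 to 151940533, before the gene, and at 1 h 1 peak of 385 bp from 151958662 to 151959046, after it. At 4 h it had none. The untreated peak had no overlap at 1 h, where 13.6% of the untreated list had none, nor at 4 h, where 9.43% had none. The peak of 1 h had no overlap at 4 h, where 9.87% of its list had none. Neither reached a −log10 q of at least 5, and both were short for their lists, with 79.5% and 96.7% of peaks at least as wide.

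Flavopiridol was profiled with H3K4me1 and H3K36me2 only. Libraries with flavopiridol alone were taken after 1 h of drug, and those with LPS after a further 4 h. Time since the drug and LPS thus both differ between them, and their parts cannot be told apart. With flavopiridol alone, H3K4me1 had 1 peak from 151945090 to 151949237, 4148 bp wide. Its ratio to the untreated width was 0.788, against a median of 0.789 over the list, so the peak was narrower by as much as the typical one. With flavopiridol then LPS there were 2 peaks, from 151944924 to 151945369 and from 151946781 to 151948341, 446 and 1561 bp wide. The width ratio of the peak at the gene start to that with flavopiridol alone was 0.376, where 15.0% of overlapping peaks narrowed at least 2-fold and 7.59% by as much.

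Without flavopiridol H3K4me1 was more extended after 4 h of LPS, and with it less extended. Cover of the 40 kb window was 13.2% in untreated cells and 25.1% at LPS 4 h, and 10.4% with flavopiridol alone and 5.02% with flavopiridol then LPS. The drop between the flavopiridol libraries was reached in 18.5% of 40 kb windows, whose median change was -1.46 points. Cover of the gene interval was 24.9% with flavopiridol alone and 14.9% with flavopiridol then LPS, and it was 0 in both where peaks needed a −log10 q of 5 or more. A drop as large in the gene interval was seen in 21.9% of 9 kb windows. Between LPS 4 h and flavopiridol then LPS, window cover was lower by 10 points or more in 27.8% of 40 kb windows, and here it differed by -20.1 points, a drop reached in 10.0% of them.

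Of the 4 H3K4me1 peaks at LPS 4 h, 3 had no overlap in the list with flavopiridol then LPS, where 33.9% of the list had none. These were the peak over the gene body and both peaks past the gene. In the other direction 1 of 2 peaks was without overlap at LPS 4 h, where 11.4% of the list was. That peak, from 151946781 to 151948341, lay in the stretch at the gene start that H3K4me1 left at LPS 4 h. All of the H3K4me1 length with flavopiridol then LPS was inside the untreated peak, and 22.2% was inside peaks of LPS 4 h.

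H3K36me2 covered 70.5% of the gene interval with flavopiridol alone, in a peak from 151948020 to 151949612 and another from 151951133 to 151955884. With flavopiridol then LPS it covered 38.5%, from 151948279 to 151949050 and from 151953307 to 151959440. LPS 4 h without the drug left 13.0%, and all 3 values were 0 where peaks needed a −log10 q of 5 or more. The difference between the LPS libraries with and without flavopiridol was 25.5 points, and 2.55% of 9 kb windows had one as high, while the median window was at -15.2 points. From flavopiridol alone to flavopiridol then LPS the change was -32.0 points, a drop reached in 15.3% of windows.

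Over the 40 kb window H3K36me2 covered 78.5% in untreated cells, 84.8% at 1 h, 72.5% at LPS 4 h, 80.4% with flavopiridol and 58.6% with flavopiridol then LPS. The drop of 10 points or more between the flavopiridol libraries was common, at 40.7% of 40 kb windows, and between LPS 4 h and flavopiridol then LPS it was 50.3%. None of the window's peaks at LPS 4 h was lost with flavopiridol then LPS, where 33.8% of the list was. With equal numbers of the widest peaks 1 was lost. The list with both agents thus had less H3K36me2 cover in much of the genome, and its part in the values at Ptgs2 was not tested.

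PU.1 had 2 peaks in the window, both in untreated cells, where alone it was profiled. The first ran from 151942556 to 151942859 with its summit at 151942723, and its near edge was 4.14 kb before the gene start. Its deposited fold enrichment was 4.09, and 76.8% of the 99588 distinct PU.1 peaks were at least as strong. The second ran from 151946950 to 151947259 with its summit at 151947129, which is 0.128 kb past the gene start. That position is known only to the nearest kb, so the side of the transcription start on which the summit lies is not known. Its fold enrichment was 2.98, and 95.0% of the list was at least as strong. Its −log10 q was 3.24, so it is the one that a minimum of 5 removes, while the first, at 6.81, stays. Both were below the list's median of 6.33.

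The PU.1 peaks sat in different chromatin. The summit before the gene was inside H3K36me2 in all 5 lists and in no peak of another mark. By a looser measure, any overlap of the whole PU.1 peak, 31.4% of PU.1 peaks overlapped H3K36me2 in untreated cells. The summit at the gene start was inside H3K4me3 and H3K27ac at all 3 times and outside H3K36me2 in all 5 lists. By the same looser measure 25.0% of PU.1 peaks overlapped H3K4me3 in untreated cells. H3K4me1 held that summit in 4 of its 5 lists, LPS 4 h being the exception. The H3K27ac peak of 4 h began 3.016 kb before the gene start and so did not reach the upstream PU.1 peak.

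The authors' segmentations name 1 chromatin state per 200 bp step, and 3 of them, with 27 states, can be followed over LPS. What a state holds is given here by the share of its length in the untreated lists. State 23 was 99.6% H3K4me3 and 99.2% H3K27ac, and state 15 was 99.9% H3K36me3 with 0.706% H3K27ac, or 1.12% in the segmentation and list of 4 h. State 1 was 99.9% H3K36me2. State 26 was 64.5% H3K36me2 and 32.2% H3K36me3, and state 27 had few marks.

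At the gene start the promoter state 23 took 0.8 kb in untreated cells, 1.2 kb at 1 h and 2.8 kb at 4 h. The gene body state 15 took 2, 3.8 and 4 kb. State 24, with H3K4me3, H3K27ac and H3K4me1 together, took 0.8 kb at 4 h and none before, and state 3, with H3K27ac, H3K4me1 and H3K36me2, took 1 kb at 4 h and none before. A stretch of 4.6 kb past the gene was in state 27 in untreated cells and in state 26 at both LPS times. State 26 took most of the rest of the window, 24.4, 24.4 and 20.2 kb, and state 1 took 6.4, 10 and 9.8 kb.

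At 4 h the state 15 segment, from 3.2 to 7.2 kb past the gene start, went against that state's usual marks. The peak lists put it 100% in H3K36me3, as the state's profile does, but also 100% in H3K27ac and 95.0% in H3K4me1, and 0% in H3K36me2. The state at these positions therefore shows the H3K36me3 and not the H3K27ac that the peak list adds. The earlier state 15 segments departed from the profile in H3K36me2. The untreated one, from 3.8 to 5.8 kb, and the 1 h one, from 2.2 to 6 kb, were each 100% in H3K36me2 peaks. In their segmentations state 15 was 14.0% and 19.8% H3K36me2. The stretch from 3.8 to 5.8 kb was thus in state 15 at every time. Its state number does not show the H3K36me2 difference of the peak lists. Why states and lists differ was not tested. The state number differed from untreated to 1 h in 28.5% of the 200 steps of the window, against 31.3% of steps genome-wide that were not in state 27 both times. From untreated to 4 h it differed in 45.5% against 36.0%, and from 1 h to 4 h in 26.5% against 32.1%. In the 45 steps of the gene interval it differed in 18, 24 and 22 steps.

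**Figure D4:**
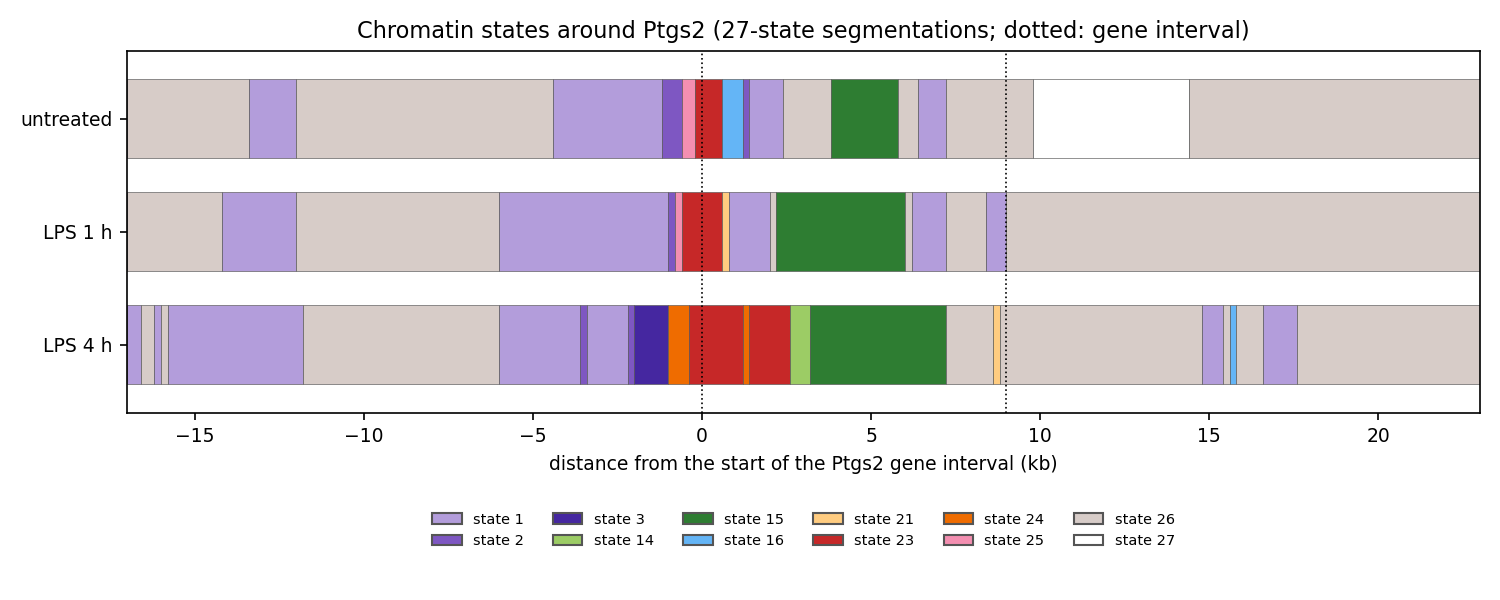
State segments around Ptgs2 in the 27-state segmentations, 1 row per condition. The x axis is the distance in kb from the start of the gene interval, colours are state numbers and dotted lines bound the gene interval. State 23 (red) takes 0.8, 1.2 and 2.8 kb, and state 15 (green) 2, 3.8 and 4 kb.

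The segmentation with 18 states has its own numbering and names no condition, and it is described here by the untreated lists. It put 17.4 kb of the window in its state 1, which was 93.4% H3K36me2, 16.8 kb in its state 18 and 3.2 kb in its state 12, which was 99.8% H3K36me3. The state 12 stretch ran from 3.2 to 6.4 kb past the gene start, and the gene interval on each side of it was in state 1 from 1.4 kb and up to 8.8 kb. The other 4 states took 0.4 to 0.8 kb each.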

How the data were processed

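Chromatin immunoprecipitation libraries of RAW264.7 cells were used as the peak lists the authors deposited. Per the submitters' processing notes, Bowtie 1.0.1 and MACS2 were used with the build mm9. Not given in the sources used here are the version and settings of MACS2, its control, pooling, the segmentation tool and read numbers, and the depth is therefore unknown. The authors deposited, for every peak, a fold enrichment (a ratio), a −log10 p, a −log10 q and a score. Among broad peaks the −log10 q went down to 0.352. Fold enrichments of overlapping broad peaks correlated across peaks between the untreated and LPS lists with a Spearman rho of 0.0474 to 0.416, and widths with 0.591 to 0.95, so intervals were compared and not heights.

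Windows, gains, losses, overlaps and width ratios were counted on chromosomes 1 to 19 and X, while totals of peaks and ranks within a list took in every sequence (99588 PU.1 peaks, against 99565 on those chromosomes), and identical intervals of a list were counted once. Cover is the share of a region within peaks. Windows of 40 kb and 9 kb were tiled from each chromosome's start, and those without a peak of the mark in either list were left out. Gained and lost peaks lack an overlap of 1 bp in the other list. A wide peak meets such an overlap more easily, and the list shares were not matched for width. Every peak of the window is accounted for. Those named with coordinates are the ones within 1 kb of the gene start, the widest of a mark, those gained or lost and, added after the values were seen, both PU.1 peaks and the flavopiridol peaks of the gene interval. The members and lists were chosen with earlier results of these data known. Other prostaglandin pathway genes were not analysed here, since no mm9 annotation was used. Sequences are from RefSeq, GRCm38.p6, and no coordinate was converted. The interval functions were tested on simulated data. Python 3.11.15 was used with numpy 2.4.6, scipy 1.17.1 and matplotlib 3.10.9. Alternatives were a −log10 q of at least 5, equal numbers of the widest peaks, peaks of at least 1 kb, merging across 1 kb, a 50% overlap and segments of at least 400 bp.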

Additional observations from a re-analysis of the deposited data

Results flagged for a closer look

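H3K4me1 cover of the 40 kb window was higher after LPS without flavopiridol, and lower with flavopiridol then LPS than with flavopiridol alone. The flavopiridol libraries differ in time since the drug as well as in LPS, and these cannot be told apart. It differed by 11.9 points from untreated cells to LPS 4 h, and by -5.35 points from flavopiridol alone to flavopiridol then LPS. The median 40 kb window also differed by 0.505 and -1.46 points, and 18.5% of windows dropped by as much as here between the flavopiridol libraries. With a −log10 q of at least 5 both flavopiridol values are 0, which ends the drop. Each direction rests on 1 library a condition, and the difference between them was not tested.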

How the results depend on the processing

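No paired analysis was possible because each mark and condition has 1 library, and for the same reason no library was left out. A value was taken as moved when it left the 95% Wilson interval of its share of 200 bp steps, and a count when it differed by over 1.5 times. Neighbouring steps are not independent, so this interval served as a tolerance only and measures no spread between libraries. The alternatives for cover of the gene interval were chosen after seeing the data. The cause of each move was not tested.

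With a deposited −log10 q of at least 5, cover of the window and of the gene interval was 0 for H3K4me1 in untreated cells, at 1 h, with flavopiridol and with flavopiridol then LPS, and for H3K36me2 in untreated cells, at 4 h, with flavopiridol and with flavopiridol then LPS. H3K36me2 covered 47.2% of the window at 1 h. H3K27me3 window cover was 0 in untreated cells and at 1 h, as it also was with peaks of at least 1 kb. H3K4me1 gains were 4 from untreated to 4 h, 4 from 1 h to 4 h and 0 from LPS 4 h to flavopiridol then LPS. H3K36me2 had 3 gains from untreated to 1 h and 3 losses from 1 h to 4 h. H3K27me3 had 0 gains and 0 losses from untreated to 1 h, and 0 losses from untreated to 4 h and from 1 h to 4 h. PU.1 kept 1 peak, the one before the gene.

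With at least 50% of a peak covered, there was 1 gain each for H3K4me3 and for H3K27ac, from untreated to 4 h and from 1 h to 4 h, and 1 each for H3K36me2 from untreated to 1 h and from LPS 4 h to flavopiridol then LPS. There was 1 loss each for H3K4me1 between the flavopiridol libraries and for H3K36me2 from untreated to 4 h, from 1 h to 4 h and between the flavopiridol libraries. With equal numbers of the widest peaks, H3K4me1 had 0 gains from untreated or 1 h to 4 h, and there was 1 loss each for H3K4me1 and H3K36me2 from LPS 4 h to flavopiridol then LPS and for H3K36me2 between the flavopiridol libraries. The 25 window covers stayed within their intervals with equal numbers and with merging, as did the 3 shares of steps whose state number differed with segments of at least 400 bp. Depth is unknown, so an absent peak is not shown to be an absent mark.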

Other observations

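Past the window, H3K36me3 had a peak at LPS 4 h from 152006498 to 152010362, 3865 bp wide and 50.5 kb after the Ptgs2 gene interval. In untreated cells and at 1 h the nearest H3K36me3 peak on that side was 251.647 and 251.36 kb away. From untreated to 4 h 11.5% of the H3K36me3 list was gained. At 4 h H3K27ac covered 47.6% of this stretch and H3K4me3 4.76%, both against 0% in untreated cells and at 1 h. H3K36me2 covered 100% of it in 4 lists and 70.8% with flavopiridol then LPS. With all peaks counted, the loss of H3K36me2 cover seen in the Ptgs2 gene interval at 4 h was thus absent from it. The H3K36me2 peak over it had a −log10 q of 2.03 in untreated cells and 3.37 at 4 h. With a minimum of 5 neither place had H3K36me2 cover at those times, which ends this contrast. In RefSeq's GRCm38.p6 the genes that follow Ptgs2 are a pseudogene and Ptgs2os2, the long noncoding RNA also called lincRNA-Cox2. Whether the peak lies in either was not determined, since the builds differ.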
